A study of Mus musculus with 9 samples.

Results

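Lung transcripts after 3 weekly whole-brain exposures to 10 Gy were compared with those after a single exposure to 10 Gy, with 3 libraries in each group. Of 22564 protein-coding genes in the deposited table, the 14469 with a mean of at least 0.5 FPKM (fragments scaled by transcript length and library size) over these 6 libraries were kept. The kept genes held 99.9% of the fragments. The lowest mean among them was 0.5001 FPKM and the highest among those left out was 0.4991 FPKM. Both groups consist of mice of the strain GFP-LC3, which carries the autophagosome marker LC3 joined to green fluorescent protein, and both received X-rays to the head at 2 Gy per min. One group received 1 exposure. The other received 3 exposures, 1 in each of 3 weeks. Number of exposures, total dose and weeks of treatment therefore differ together and cannot be told apart. The labels give no age, no sex and no interval between the last exposure and tissue collection, and they do not state that each library came from a separate animal, so p-values measure the spread between these libraries. The series design text names the by-stander effect in the lung as its subject, and the comparison asks whether repeated head exposure left lung transcripts at another level than 1 exposure did.

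Radiation damage to DNA activates p53, which halts the cell cycle and induces repair and death genes, and fragments of DNA in the cytosol can start the type I interferon response. In an irradiated lung these responses are known to be followed by inflammation and by deposition of collagen and elastin. The lung here lay outside the field, where signals carried by blood, nerves, hormones or circulating cells are the routes usually considered.

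The libraries held 5631266 to 7381009 fragments, and 2 of them stood apart from the rest. Library 1 of the single exposure lay at -118.8 on the first principal component, which held 47.8% of the variance, whereas the other 5 lay between -2.69 and 48.5. It carried heart, airway and fat transcripts. Myh6, the cardiac myosin heavy chain, stood at 5066, 10.2 and 200 CPM (fragments scaled to library size, normalized) after a single exposure and at 33.1, 32.2 and 107 CPM after 3 exposures. The 35 heart muscle genes summed to 11070 FPKM in that library and to 92.7 to 534 FPKM in the others. In the same library Ager, the receptor that marks alveolar type 1 cells, stood at 96.5 CPM against 601 to 1343 CPM in the other 5, and Pecam1, the endothelial adhesion molecule, at 183 CPM against 384 to 775 CPM. Library 3 of the 3 weekly exposures lay at 61.7 on the second component (17.4%) and had no fragment of the 4 Y-linked genes measured. Ddx3y, a Y-linked helicase, stood at 66.6 to 98.0 CPM in the other 5 libraries. That library and library 1 of the single exposure shared high fat transcripts, with Adipoq, the adipocyte hormone adiponectin, at 136 and 113 CPM against 0 to 2.22 CPM elsewhere. Transcripts of the mitochondrial genome took 7.16% of fragments in the first single-exposure library, 5.82% in library 1 of the 3 weekly exposures and 1.73 to 2.13% in the others. Lung markers were present in all libraries: Sftpc, surfactant protein C of alveolar type 2 cells, reached 1877 to 10440 FPKM, and Scgb1a1, the secretoglobin of club cells, 63550 to 122800 FPKM.

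**Figure D1:**
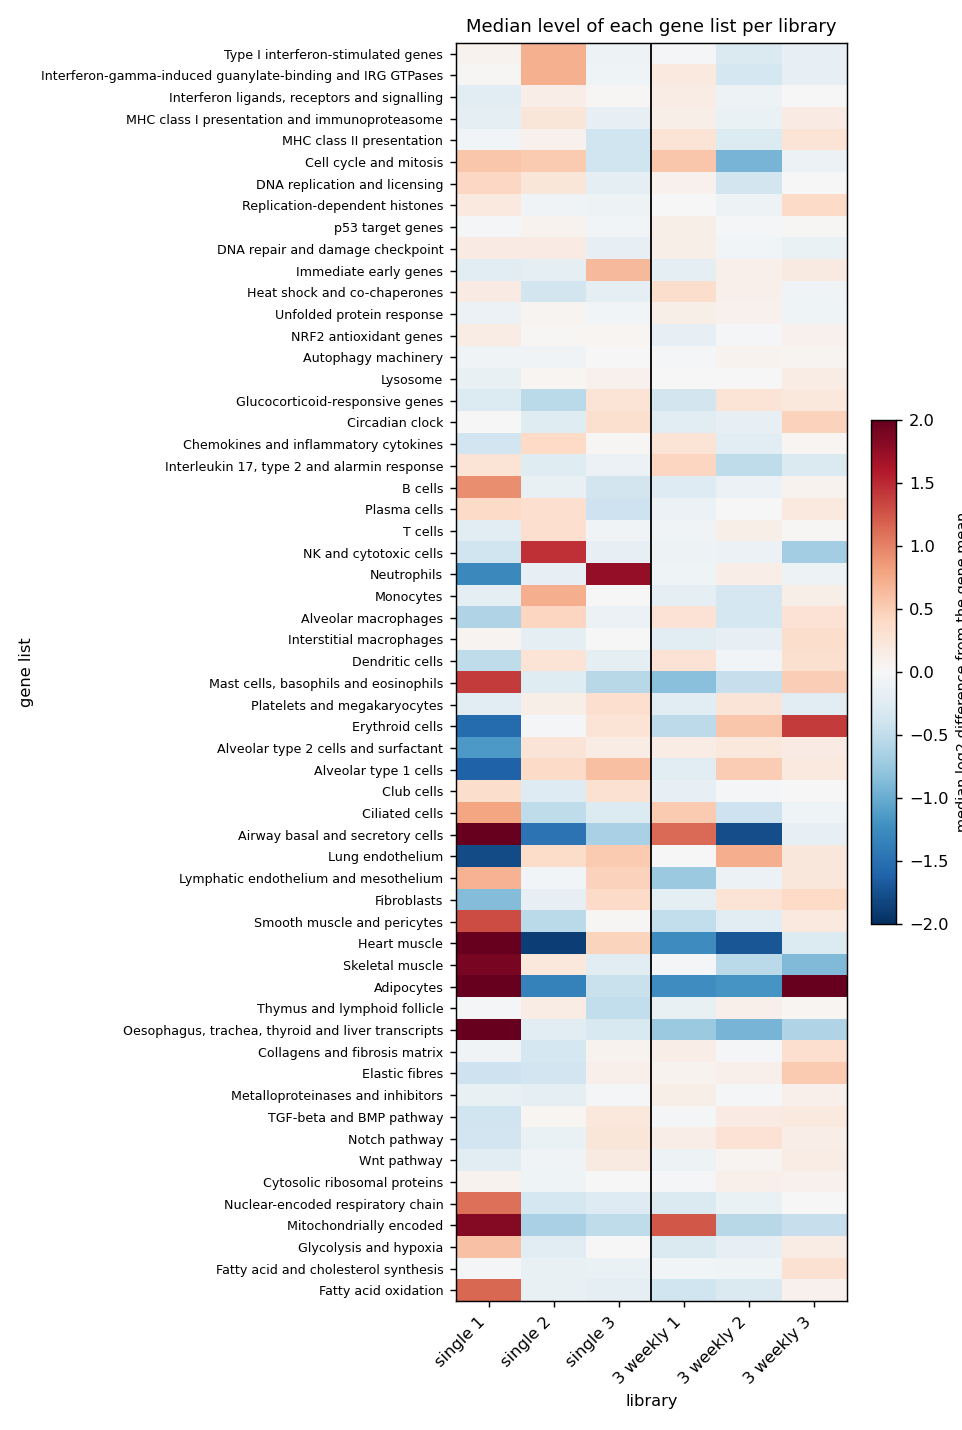
Median level of 58 gene lists (rows) in the 6 libraries (columns), as the median over a list's genes of log2(CPM + 0.5) minus the gene's mean over the libraries; red is above and blue below that mean. Library 1 of the single exposure stands out in heart muscle (4.85), adipocytes (2.68), alveolar type 1 cells (-1.62) and endothelium (-1.79), and few rows change colour at the line between the groups.

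No gene was called. With edgeR's quasi-likelihood test, 0 of 14469 genes (0%) had a Benjamini-Hochberg adjusted p under 0.05, and the smallest was 0.220, for albumin. DESeq2 called 3 genes and limma on log2(FPKM + 1) called 2. An unadjusted p under 0.05 was reached by 455 genes (3.14%), 181 higher (1.25%) and 274 lower (1.89%) after 3 exposures, where 723.5 would be reached if no gene differed. Of these, 237 (1.64%) also differed at least 2-fold, 47 higher (0.325%) and 190 lower (1.31%). Without library 1 of the single exposure the 2-fold count was 193, with 112 higher and 81 lower, so that the larger number of lower genes was not seen without it. Nor was it seen without library 2 of the 3 weekly exposures (71 higher, 51 lower) or with limma voom on all 6 libraries (64 higher, 40 lower). On leaving out any other library it was seen. Over all 6 libraries, 50.7% of the genes had a log2 difference below 0 and 49.3% above 0, with a median of -0.0052, and 90% of them lay between -0.96 and 0.63. The median SE of a log2 difference was 0.30. In 1168 genes (8.07%) every library of one group lay above every library of the other, 634 higher (4.38%) and 534 lower (3.69%) after 3 exposures. The sections that follow give values for groups of genes, none of which holds a called gene.

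**Figure D2:**
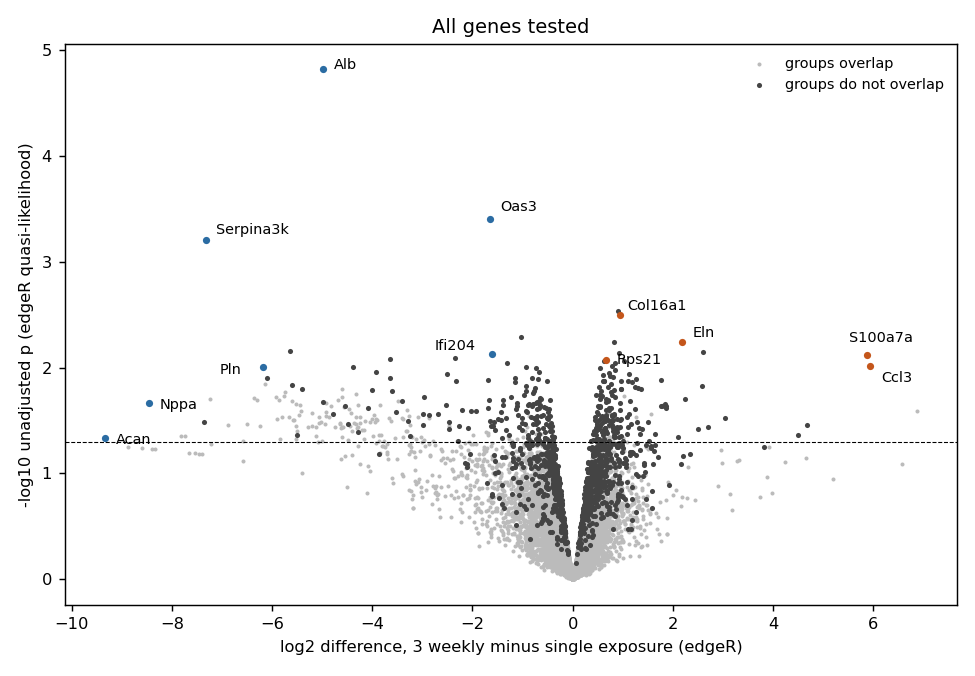
Each point is 1 of 14469 genes, with the log2 difference between 3 weekly and a single exposure on the x axis and -log10 of the unadjusted edgeR p on the y axis; dark points are genes whose groups do not overlap, and the dashed line marks an unadjusted p of 0.05. Alb and Oas3 lie above the other genes, and the long left arm holds heart and airway genes such as Nppa and Acan that were high in 1 library.

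The gene with the smallest p was albumin, the main protein of plasma, which is made by hepatocytes. Its gene Alb (chromosome 5, 90460897 to 90476602, mm10) had 184, 145 and 142 fragments in the single-exposure libraries and 1, 8 and 6 in the others. In normalized levels these were 27.3, 24.8 and 22.5 CPM against 0.173, 1.08 and 0.982 CPM. The groups did not overlap, and the spread within each was narrow beside the gap between them. The log2 difference was -4.99 ± 0.50 (SE, n = 3 against 3), or 31.7-fold lower, with an edgeR adjusted p of 0.220. It stood between -4.57 and -5.36 when 1 library was left out, so no single library made it. The adjusted p was 1.94e-17 with DESeq2 and 0.0158 with limma, and over all alternatives it ranged from 1.94e-17 to 1. At 10.2 to 11.9 FPKM after a single exposure, albumin was a minor transcript beside the surfactant and secretoglobin genes.

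Some sparser hepatocyte transcripts lay the same way, and others overlapped. Among the latter, Apob had 98, 48 and 34 fragments after a single exposure against 75, 42 and 43 after 3. Tdo2 had 7, 7 and 9 against 3, 16 and 1. Plasma protein transcripts more abundant than Alb, such as Hp, Trf and Rbp4, did not lie the same way as Alb. Their means over the 6 libraries were 388, 248 and 33.9 FPKM, against 5.79 FPKM for Alb. Which cells made them was not tested. Serpina3k, a serine protease inhibitor of plasma, had 19, 19 and 21 fragments after a single exposure and none after 3, which is at least 19.8-fold lower when 3 fragments are allowed to the group at 0. Apoa1, the main apolipoprotein of high-density lipoprotein, had 7, 7 and 4 fragments against none (at least 6.03-fold lower), and Fgb, the fibrinogen beta chain, 7, 5 and 5 against none (at least 5.69-fold lower). Ahsg, the plasma glycoprotein fetuin-A, had 80, 19 and 19 fragments against 5, 0 and 0, and Fga, the fibrinogen alpha chain, 11, 9 and 12 against 3, 0 and 0. Serpina3k, Ahsg and Serpina1b (17, 8 and 5 fragments against 1, 0 and 1) share their loci with other genes, and members of the Serpina1 family are near-identical copies, so their separate values are uncertain. These floors and counts cover counting error only.

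A list of 53 liver genes was drawn up after these values had been seen, so it is a description with no test. Of its members, 26 passed the FPKM minimum. Of the 53, 12 had fragments in every single-exposure library and in no library after 3 exposures, among them Ttr, the thyroxine carrier transthyretin, Plg, the precursor of plasmin, and the drug-metabolizing enzyme Cyp3a11. None showed the reverse. Over the whole table the same pattern was met in 59 genes, and its reverse in 17. As a share of the library's fragments, every single-exposure library lay above every library of the 3 exposures in 20 of the 53, of which 7 passed the FPKM minimum. Of all genes tested, 3.69% lay lower without overlap, but after TMM normalization. No share over the whole table was computed for shares of fragments, so the 20 have no like background. Hp was the only 1 of the 53 that lay above without overlap as a share of fragments. It encodes haptoglobin and had 2503, 3042 and 3755 fragments against 3432, 4521 and 3777, and its groups overlapped after TMM normalization. Trf, which encodes the iron carrier transferrin, had 3350, 2317 and 2350 fragments against 2236, 2891 and 4198. Rbp4, the retinol carrier, had 228, 110 and 169 against 80, 137 and 455, and both genes overlapped. In bulk tissue, fewer cells of a type and less RNA per cell cannot be told apart. Whether liver RNA reached the 3 single-exposure samples in dissection or library preparation was not tested.

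**Figure D3:**
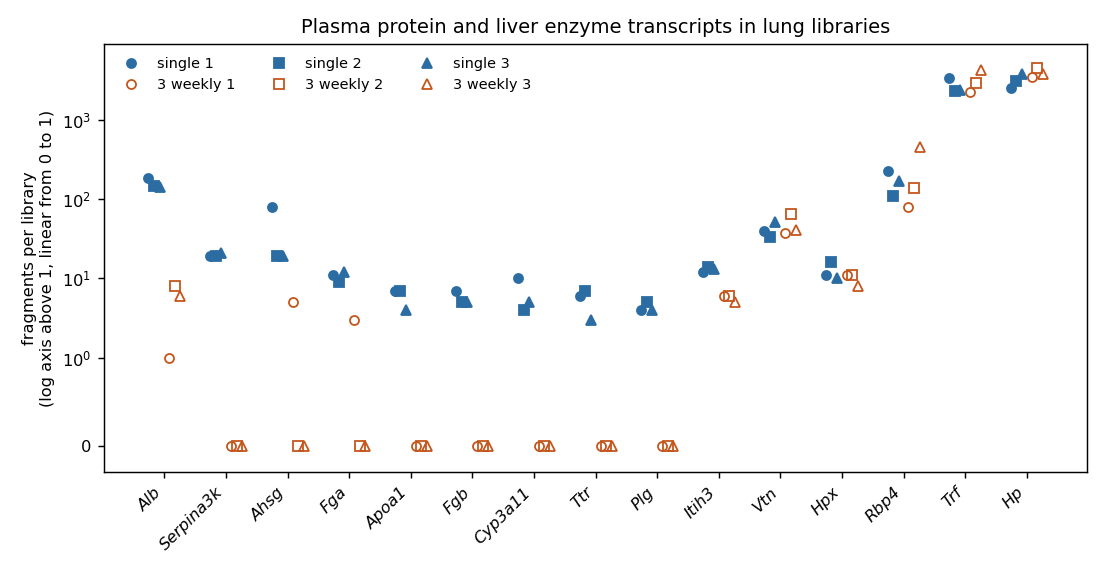
Fragments per library (y axis, logarithmic above 1) of 15 plasma protein and liver enzyme genes (x axis); filled blue symbols are the 3 single-exposure libraries and open orange symbols the 3 libraries after 3 weekly exposures. The genes from Alb to Plg lie higher in every single-exposure library, and Vtn, Hpx, Rbp4 and Trf, at the right, overlap.

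Type I interferons act on nearly all cells, where transcription factors activated by the receptor bind the interferon response element in promoters and switch on antiviral genes. The gene with the smallest p after albumin belonged to this programme. Oas3, a synthetase of the oligoadenylates that activate an RNA-degrading enzyme (chromosome 5, 120753098 to 120777661), stood at 14.5, 19.1 and 22.1 CPM after a single exposure and at 6.24, 5.55 and 5.89 CPM after 3. The groups were far apart, and the 3 libraries after repeated exposure were close together. The log2 difference was -1.65 ± 0.27 (SE, n = 3 against 3; 3.15-fold lower), with an adjusted p of 0.995 in edgeR and 0.0146 in DESeq2, and a range of 0.0146 to 1 over all alternatives. It stood between -1.52 and -1.81 when 1 library was left out.

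Promoters of 3 members are shown because they differ in how the element is spaced and in how the genes stood between the groups: Oas3 and Ifit1 had groups that did not overlap, and Isg15 did not separate them. They run from 250 bases before to 50 bases after the start of transcription, in the direction of transcription, from RefSeq on GRCm38.p6, at chr5:120777610-120777909 (minus strand), chr19:34640639-34640938 (plus strand) and chr4:156200769-156201068 (minus strand). Capitals mark the bases of each match to a GAAA followed, after a pair of any bases, by another GAAA, read on either strand.
Oas3: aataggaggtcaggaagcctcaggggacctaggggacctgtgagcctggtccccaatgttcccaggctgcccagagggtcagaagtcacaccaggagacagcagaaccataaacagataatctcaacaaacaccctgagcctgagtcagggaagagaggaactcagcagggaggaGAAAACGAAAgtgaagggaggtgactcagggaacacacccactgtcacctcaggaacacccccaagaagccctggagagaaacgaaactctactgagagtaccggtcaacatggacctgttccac
Ifit1: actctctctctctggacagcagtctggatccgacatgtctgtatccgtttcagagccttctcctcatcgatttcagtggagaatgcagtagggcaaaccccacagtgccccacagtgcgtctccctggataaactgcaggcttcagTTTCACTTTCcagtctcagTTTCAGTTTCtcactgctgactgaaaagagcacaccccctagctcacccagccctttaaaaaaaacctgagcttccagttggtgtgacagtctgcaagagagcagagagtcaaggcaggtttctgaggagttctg
Isg15: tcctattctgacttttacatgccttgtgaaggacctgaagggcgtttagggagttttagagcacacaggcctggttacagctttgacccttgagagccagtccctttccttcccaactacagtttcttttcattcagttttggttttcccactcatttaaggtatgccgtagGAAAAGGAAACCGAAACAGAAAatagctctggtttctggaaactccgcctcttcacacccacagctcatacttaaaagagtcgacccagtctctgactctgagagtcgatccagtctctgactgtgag
Oas3 held 1 match, Ifit1 held 2 on the opposite strand, and Isg15 held 3 that overlapped. Such a match was found in 16 (55.2%) of the 29 list members with a promoter in the table, in 3.88% of tested genes and in 3.99% of all promoters of this length.

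Of 39 measured type I interferon-stimulated genes, 0 were called, 35 had a log2 difference below 0 against 50.7% of all genes, and the median was -0.43. In 5 of them the groups did not overlap, all lower after 3 exposures (3.69% of all genes lay that way). Ifi204, a nuclear DNA sensor, stood at 19.6, 22.5 and 13.3 CPM against 5.38, 3.25 and 9.65 CPM (-1.60 ± 0.44). Irf7, which amplifies interferon production, stood at 42.3, 59.9 and 30.1 CPM against 24.5, 18.7 and 29.3 CPM (-0.87 ± 0.30). Ifit1, which binds viral RNA caps, stood at 59.5, 122 and 41.1 CPM against 39.9, 28.6 and 36.5 CPM (-1.09 ± 0.40). In Irf7 and Ifit1 the lowest single-exposure library lay just above the highest of the other group in CPM, and library 2 of the single exposure was the highest. In FPKM the groups of Irf7 overlapped, at 23.1, 36.4 and 16.8 against 12.8, 11.1 and 23.4. Isg15, a ubiquitin-like modifier, overlapped, at 2.67, 3.93 and 2.06 CPM against 2.60, 2.17 and 1.47 CPM (-0.47 ± 0.52).

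The list median was highest in library 2 of the single exposure, where it lay 0.71 above the gene means while libraries 1 and 3 stood at 0.066 and -0.10 and the 3 libraries of the repeated exposure at -0.03, -0.29 and -0.17. Without library 2 the median was -0.10 with 25 of 39 members below 0, Irf7 stood at -0.60 and Ifit1 at -0.54, while Oas3 stood at -1.64. Ifitm6, an interferon-induced membrane protein outside the list, stood at 2.23, 2.90 and 5.55 CPM against 0.694, 0.406 and 0.982 CPM (-2.34 ± 0.65). Tlr7, the endosomal sensor of single-stranded RNA, stood at 30.1, 43.4 and 28.2 CPM against 19.1, 18.7 and 24.4 CPM (-0.71 ± 0.24), and the median over the 23 interferon ligands, receptors and signalling genes was -0.01.

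**Figure D4:**
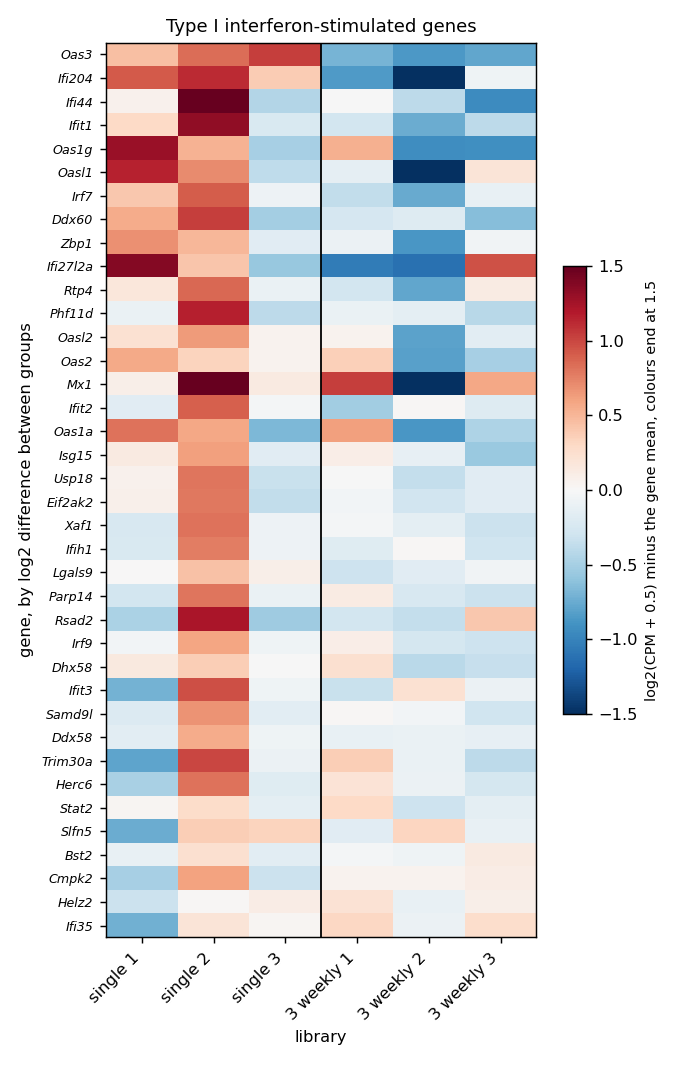
Level of 38 of the 39 type I interferon-stimulated genes (rows, ordered by log2 difference) in the 6 libraries (columns), as log2(CPM + 0.5) minus the gene's mean; red is above and blue below that mean. Oas3 and Ifi204 at the top separate the groups, and from Ifi44 down the red column of library 2 of the single exposure stands out.

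Genes induced by interferon gamma, chiefly guanylate-binding proteins and immunity-related GTPases that attack vacuoles of intracellular microbes, lay below 0 in 19 of 20 measured members, with a median of -0.38. Groups did not overlap in 4, all lower (3.69% of all genes lay that way), among them Cxcl9, a chemokine for activated T cells (13.8, 19.5 and 12.1 CPM against 9.54, 5.69 and 10.8 CPM; -0.80 ± 0.34), and Gbp2 (102, 161 and 101 CPM against 80.7, 83.9 and 100 CPM; -0.46 ± 0.23, and -0.22 without library 2 of the single exposure). Without library 2 of the single exposure the median was -0.15 with 13 of 20 below 0. MHC genes did not lie that way: class I presentation genes had a median of 0.06 and class II genes of 0.24, and H2-Q6, a class I chain, stood at 33.9, 52.6 and 43.8 CPM against 72.0, 58.1 and 61.0 CPM.

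Among genes higher after 3 exposures, elastin had the smallest p of those at least 2-fold apart. Elastin gives lung and vessels their recoil and is made mainly in growth or after injury. Eln (chromosome 5, 134702593 to 134747323) stood at 39.8, 42.7 and 33.2 CPM after a single exposure and at 331, 136 and 59.2 CPM after 3. The single-exposure libraries were alike, and the libraries after 3 exposures were spread over a wide range, each above them. The log2 difference was 2.18 ± 0.57 (SE, n = 3 against 3; 4.54-fold higher; edgeR adjusted p of 0.995), and 1.33 without the highest library. Of the other genes around the elastic fibre, Ltbp2, a microfibril protein that binds fibulin, stood at 43.9, 99.0 and 118 CPM against 282, 151 and 187 CPM (1.25 ± 0.40). Ltbp3, which carries latent TGF-beta, stood at 98.6, 93.6 and 143 CPM against 185, 145 and 202 CPM (0.67 ± 0.23). Mfap4, an elastin-binding glycoprotein, stood at 122, 324 and 494 CPM against 577, 504 and 555 CPM (0.80 ± 0.46; 0.41 on leaving out single-exposure library 1 and 1.28 on leaving out library 3). In Ltbp3 and Mfap4 the highest single-exposure library lay just under the lowest of the other group. Ltbp2 and Ltbp3 each share their locus with another gene. Of 20 elastic fibre genes, 14 lay above 0 (49.3% of all genes did), 4 had groups that did not overlap, all higher (4.38% of all genes), and the median was 0.41. Without library 1 of the single exposure the median was 0.30 with 16 of 20 above 0. Fibrillin-1 and fibulin-5, the scaffold on which elastin is laid, stood at 0.15 and 0.39 with overlapping groups.

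Collagens and their processing enzymes had a median of 0.21, with 28 of 36 above 0 and 3 whose groups did not overlap, all higher, beside 4.38% of all genes. Without library 2 of the single exposure the median was 0.15 with 14 of 36 below 0. Leaving out library 1 instead gave 0.26 with 6 below 0. Col16a1, a collagen associated with fibril surfaces (chromosome 4, 130047840 to 130099283), stood at 13.4, 13.8 and 18.7 CPM against 27.4, 29.1 and 32.1 CPM, with the groups well apart in CPM (0.95 ± 0.22). In FPKM its groups overlapped, at 3.73, 6.49 and 6.12 against 5.93, 5.77 and 11.1, and its difference on log2(FPKM + 1) was 0.39. Serpinh1, the chaperone of procollagen, stood at 195, 160 and 202 CPM against 246, 308 and 255 CPM (0.54 ± 0.19), and its groups also overlapped in FPKM. The main fibrillar collagens overlapped: Col1a1 stood at 484, 192 and 443 CPM against 628, 305 and 616 CPM (0.47 ± 0.42), and Col3a1 at 1237, 784 and 789 CPM against 1112, 815 and 1293 CPM (0.20 ± 0.31). Loxl1, an enzyme that cross-links elastin, stood at 64.7, 56.0 and 91.9 CPM against 86.6, 92.9 and 140 CPM (0.59 ± 0.27; 0.34 without library 3 of the 3 weekly exposures). Among proteases, Mmp2, a gelatinase, stood at 119, 103 and 93.5 CPM against 197, 112 and 214 CPM (0.73 ± 0.26), and Mmp12, the elastase of macrophages, at 9.06, 28.3 and 4.28 CPM against 176, 9.08 and 19.5 CPM. Library 1 of the 3 weekly exposures was highest in both Mmp12 and elastin, and without it the log2 difference of Mmp12 was 0.03. The TGF-beta and BMP list had a median of 0.04 and the Notch list of 0.33 (-0.11 and 0.13 on leaving out single-exposure library 1), with the fringe enzyme Mfng at 14.6, 14.7 and 23.2 CPM against 23.4, 27.4 and 32.1 CPM.

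**Figure D5:**
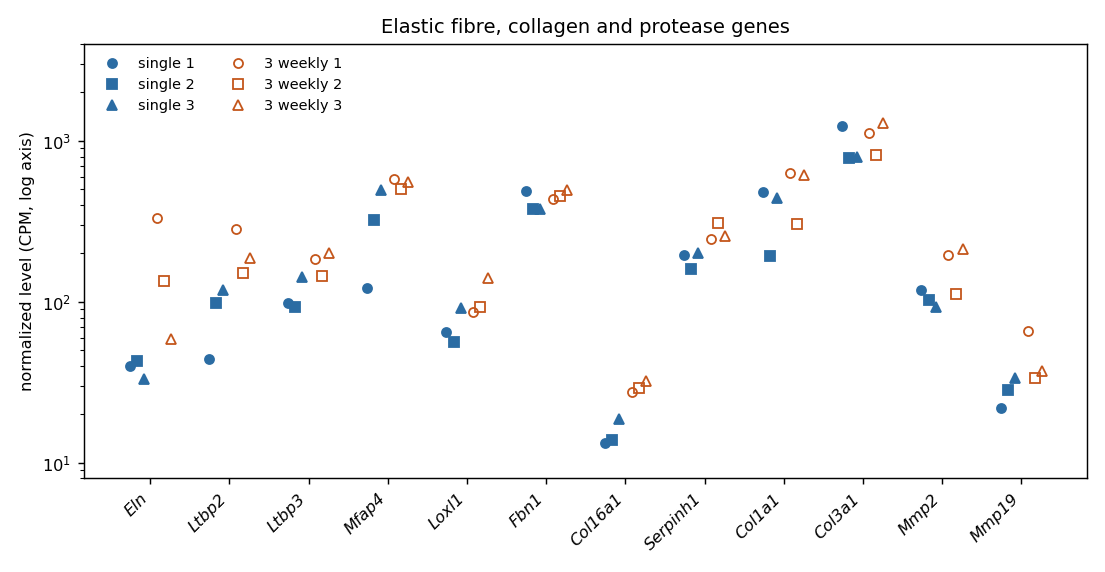
Normalized level (CPM, logarithmic y axis) of 12 elastic fibre, collagen and protease genes (x axis) in each library; filled blue symbols are the 3 single-exposure libraries and open orange symbols the 3 libraries after 3 weekly exposures. Eln spreads from 59.2 to 331 CPM after 3 exposures above single-exposure libraries of 33.2 to 42.7 CPM, Col16a1 separates the groups, and Col1a1 and Col3a1 overlap.

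Genes of the cell cycle lay below 0 in 32 of 36 cases, with a median of -0.41. The library medians did not separate the groups, at 0.55, 0.53 and -0.40 after a single exposure and at 0.56, -0.93 and -0.12 after 3. Mki67, the antigen of cycling nuclei, stood at 154, 150 and 65.2 CPM against 143, 58.1 and 100 CPM (-0.29 ± 0.42). Only in Nuf2, a kinetochore protein, did the groups not overlap among the 36 (6.24, 8.37 and 7.62 CPM against 4.34, 1.36 and 1.31 CPM; -1.67 ± 0.56). Of all genes, 3.69% lay lower without overlap. Without library 2 of the 3 weekly exposures the list median was -0.13, and without library 1 it was -0.85. Replication genes lay below 0 in 26 of 31 cases with a median of -0.19, which lay between -0.29 and -0.08 when 1 library was left out. Without library 1 of the single exposure 20 of 31 lay below 0. Mcm5, a subunit of the replicative helicase, stood at 20.8, 21 and 18.6 CPM against 11.1, 9.08 and 16.2 CPM (-0.73 ± 0.27). The 30 replication-dependent histone genes had a median of -0.01, with 4 higher and 1 lower without overlap (4.38% and 3.69% of all genes), among them the H4 gene Hist1h4c at 21.7, 20.7 and 18.9 CPM against 42.3, 26.8 and 26.8 CPM.

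The p53 targets, the textbook response to DNA damage, had a median of 0.08 over 29 genes. Of these, 1 lay higher and 2 lower without overlap (4.38% and 3.69% of all genes). Cdkn1a, the p21 inhibitor of cell division, stood at 85.1, 50.2 and 68.7 CPM against 104, 81.7 and 59.2 CPM with overlapping groups (0.26 ± 0.28). Bax, which opens the mitochondrial membrane in apoptosis, stood at 11.9, 9.05 and 13.8 CPM against 18.9, 19.5 and 22.7 CPM, apart in all libraries (0.81 ± 0.25). Perp, a desmosome and death gene, lay lower without overlap. It stood at 79.6, 19.3 and 24.6 CPM against 16.1, 18.0 and 16.9 CPM (-1.28 ± 0.52), a difference that was -0.37 without library 1 of the single exposure. Ccng1, cyclin G1, stood at -0.85 ± 0.36 with that library and at -0.31 without it. The 35 DNA repair and checkpoint genes had a median of -0.02.

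Among signalling responses, immediate early genes, transcribed soon after a stimulus without new protein synthesis, had a median of -0.05 over 32 members, which was 0.24 without library 3 of the single exposure. Library 3 of the single exposure was high (0.64) and the other libraries lay between -0.21 and 0.18. Fos stood at 67.6, 99.6 and 205 CPM against 46.5, 123.4 and 54.6 CPM (-0.73 ± 0.50; -0.17 without library 3 of the single exposure), and Egr1 at 101, 66.4 and 136 CPM against 27.6, 80.3 and 47.6 CPM (-0.96 ± 0.42). Heat shock and co-chaperone genes lay above 0 in 17 of 20 cases with a median of 0.34, which was 0.13 without library 1 of the 3 weekly exposures. Hspa1b, the inducible HSP70, stood at 7.87, 4.78 and 11.7 CPM against 54.1, 12.9 and 16.03 CPM (1.76 ± 0.61), and at 0.82 without the highest library. It is a near-identical copy of Hspa1a, so its value is uncertain. Dnajb4, a co-chaperone, lay lower without overlap (3.69% of all genes did), at 64.9, 72.7 and 73.1 CPM against 48.0, 63.9 and 56.3 CPM. Glucocorticoid-responsive genes had a median of 0.13 over 24 members, which lay between -0.06 and 0.40 when 1 library was left out, with Cebpb, a transcription factor of the acute phase response, at 23.8, 19.5 and 40.5 CPM against 55.7, 45.8 and 62.8 CPM (0.97 ± 0.30). Of 20 circadian clock genes, 11 lay above 0, and the groups did not overlap in Cry1, a repressor of the clock's core activators (7.42, 14.0 and 14.8 CPM against 25.3, 33.6 and 20.0 CPM; 1.13 ± 0.34). Of all genes, 4.38% lay higher without overlap. The hour of tissue collection is not given in the labels, and its part in the values of clock genes was not tested.

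Autophagy delivers cell contents to the lysosome in vesicles coated with LC3, the protein tagged in these mice. The 38 autophagy genes had a median of -0.01. Map1lc3b, which encodes LC3B, stood at 194, 181 and 220 CPM against 167, 194 and 215 CPM (-0.05 ± 0.18), and Sqstm1, the cargo receptor p62, at 202, 200 and 233 CPM against 176, 228 and 240 CPM (0.02 ± 0.19). In both the groups overlapped. On the log2(FPKM + 1) scale Map1lc3b stood at -0.34 and Sqstm1 at -0.31, where the median of all genes was -0.097. The groups did not overlap in 5 members, all higher after 3 exposures (4.38% of all genes lay that way). Atg16l2, a relative of the LC3-conjugating factor ATG16L1, stood at 5.49, 6.83 and 8.09 CPM against 20.8, 11.7 and 11.8 CPM (1.11 ± 0.34). Gabarapl2, an LC3 relative, stood at 21.4, 30.7 and 27.0 CPM against 33.3, 40.2 and 30.9 CPM (0.40 ± 0.22), with the sign turned on the FPKM scale. The others were Becn1, Pik3r4 and Atg4d, with log2 differences of 0.17, 0.11 and 0.33. The 35 lysosome genes had a median of 0.04.

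The medians of several immune marker lists followed single libraries. All 17 markers of NK and cytotoxic cells lay below 0 with a median of -0.79, but no gene's groups were free of overlap. Library 2 of the single exposure stood 1.46 above the gene means and the other 5 libraries lay between -0.70 and -0.10, and without it the median was 0.02. Klrk1, the activating receptor NKG2D, stood at 7.42, 28.9 and 11.1 CPM against 10.2, 5.15 and 4.09 CPM. Neutrophil genes had a median of -0.96, with library 3 of the single exposure at 1.76 and library 1 at -1.29. S100a8, a neutrophil calcium-binding protein, stood at 1.34, 7.51 and 96.9 CPM against 9.89, 25.6 and 7.36 CPM, and without library 3 the list median was 0.51. B cell genes lay below 0 in 17 of 19 cases with a median of -0.44, and Cd79a, a chain of the B cell receptor complex, stood at 45.1, 13.3 and 14.8 CPM against 10.4, 21.5 and 24.4 CPM. Without library 1 of the single exposure their median was 0.07. Monocyte genes had a median of -0.48, and 0.03 without library 2. T cell genes had a median of -0.09, and 0.08 without library 2 of the single exposure. Alveolar macrophage genes had a median of 0.17, and -0.07 without library 1 of the single exposure.

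Dendritic cell markers had a median of 0.39 with 14 of 18 above 0 (0.22 without library 1 of the 3 weekly exposures), and Itgae, the CD103 integrin of airway dendritic cells and resident T cells, stood at 11.3, 20.3 and 14.0 CPM against 34.9, 19.5 and 38.1 CPM (1.02 ± 0.34). Of 33 chemokine and cytokine genes, 3 lay higher and 2 lower without overlap (4.38% and 3.69% of all genes). Ccl3, a macrophage chemokine, had no fragment after a single exposure and 13, 5 and 4 after 3, at least 7.30-fold higher when 3 fragments are allowed to the empty group. Ccl20, which attracts CCR6-bearing lymphocytes and dendritic cells, stood at 1.63, 0.683 and 1.43 CPM against 6.07, 5.55 and 1.96 CPM. Cxcl5, a neutrophil attractant, was high in 1 library only, at 81.0 CPM in library 1 of the 3 weekly exposures against 0.654 to 4.78 CPM elsewhere. Platelet and megakaryocyte genes had a median of -0.11, with 11 above and 12 below 0. Among them Treml1, a receptor of platelet granules, stood at 1.19, 1.02 and 1.74 CPM against 0.347, 0.406 and 0.164 CPM, from at most 11 fragments. Erythroid genes had a median of 0.85, which was 0.40 without library 1 of the single exposure, 0.27 without library 3 of the 3 weekly exposures and -0.08 without both, with Hbb-bt, an adult beta globin, at 16.5, 53.4 and 58.7 CPM against 59.8, 106 and 155 CPM. The erythroid library medians were -1.53, -0.04 and 0.27 in the single-exposure libraries against -0.53, 0.56 and 1.39 in the others, and the blood content of the lungs was not measured otherwise.

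Medians of lung cell type lists moved with library 1 of the single exposure. Alveolar type 2 and surfactant genes had a median of 0.27, alveolar type 1 genes of 0.12 and endothelial genes of 0.33, and without that library the medians were -0.02, -0.18 and -0.11. Sftpc stood at 1416, 6773 and 6960 CPM against 4506, 6575 and 6641 CPM (0.23 ± 0.62). Ager stood at 0.20 ± 0.78 and Pecam1 at 0.24 ± 0.49, and each turned below 0 without that library. Scgb1a1 stood at 34270, 21990 and 37020 CPM against 28220, 24280 and 34760 CPM (-0.10 ± 0.59). Ciliated cell genes had a median of -0.01, and 0.42 without library 1. Basal and secretory airway genes had a median of -2.22, all 13 below 0, but the library median was 3.64 in library 1 of the single exposure, and without it the 8 still tested lay above 0. Krt15, a keratin of basal cells, stood at 60.0, 0.171 and 0 CPM against 0, 0.542 and 0 CPM.

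Medians of muscle and energy lists moved with the same library. All 35 heart genes lay below 0, with a median of -4.43, and 29 were lower at an unadjusted edgeR p under 0.05 (1.89% of all genes were). The groups overlapped in all but Pln, phospholamban, at 402, 3.93 and 15.2 CPM against 1.73, 0.813 and 3.27 CPM (3.69% of all genes lay lower without overlap). Without library 1 of the single exposure the median was -0.70 with 29 of 30 below 0. Smooth muscle genes had a median of -0.62, and 0.16 without that library. Acta2, smooth muscle actin, stood at 1367, 190 and 240 CPM against 85.0, 174 and 269 CPM. Adipocyte genes had a median of 0.12, 2.27 without library 1 of the single exposure and -3.42 without library 3 of the 3 weekly exposures. Nuclear genes of the respiratory chain lay below 0 in 39 of 45 cases with a median of -0.49, and 0.14 without library 1 of the single exposure. Fatty acid oxidation genes had a median of -0.51, and -0.02 without it. Cpt1a, the carnitine transferase that admits fatty acids to mitochondria, lay lower without overlap (3.69% of all genes did). It stood at 159, 162 and 144 CPM against 101, 114 and 130 CPM (-0.43 ± 0.17). Lipid synthesis genes had a median of 0.23 with 25 of 31 above 0 (0.09 without library 3 of the 3 weekly exposures). Groups did not overlap in 3 higher and 1 lower member (4.38% and 3.69% of all genes). Srebf1, their transcription factor, stood at 79.1, 52.4 and 72.0 CPM against 83.1, 103 and 136 CPM (0.66 ± 0.24). It was highest in library 3 of the 3 weekly exposures, which held fat transcripts. Hsd17b7, a hydroxysteroid dehydrogenase with the smallest p of the list, lay lower without overlap. It stood at 41.7, 25.4 and 23 CPM against 14.9, 19.2 and 17.5 CPM (-0.80 ± 0.28), and at -0.49 without library 1 of the single exposure.

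Cytosolic ribosomal protein genes had a median of 0.08 over 76 members, 42 above 0. In 13 the groups did not overlap, 10 higher and 3 lower after 3 exposures, beside 4.38% and 3.69% of all genes. Rps21, of the small subunit, stood at 18.1, 16.7 and 18.4 CPM against 29.7, 26.3 and 28.3 CPM, with little spread in either group (0.66 ± 0.19). Rplp2, a stalk protein of the large subunit, stood at 19.9, 13.3 and 23 CPM against 36.4, 34.8 and 30.3 CPM (0.85 ± 0.25), and Rps9 at 142, 135 and 168 CPM against 203, 212 and 225 CPM (0.53 ± 0.17). Rpl5, Rpl10 and Rpl12, of the large subunit, lay the other way, at -0.28, -0.42 and -0.32. Several ribosomal protein genes have near-identical copies elsewhere in the genome, so that reads may be split between them.

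The remaining genes with the smallest p among those at least 2-fold apart without overlap were sparse or of varied function, and none was called. Higher after 3 exposures were Eif4ebp3 (0.149, 0.342 and 0.317 CPM against 1.39, 1.63 and 2.13 CPM), a repressor of cap-dependent translation that shares its locus with another gene, and S100a7a, an epithelial S100 protein with no fragment after a single exposure and 9, 10 and 3 after 3 (at least 7.30-fold higher). Mfsd2a, the transporter of omega-3 lysolipids, stood at 2.37, 2.22 and 2.70 CPM against 5.72, 6.23 and 5.56 CPM (1.26 ± 0.38), and Ogfod2 at 4.60, 5.29 and 5.24 CPM against 10.6, 9.48 and 10.96 CPM (1.03 ± 0.29). Both were tight within groups. Noxa1, an activator of NADPH oxidase, stood at 0.742, 0.854 and 1.43 CPM against 12.3, 1.63 and 4.42 CPM, and Azi1, Gm16432, Atg16l2, Cry1 and Ltbp2 completed the 12. Lower after 3 exposures were Nol8, a nucleolar protein (22.6, 17.3 and 14.8 CPM against 9.02, 9.75 and 7.85 CPM; -1.03 ± 0.26), and Gm13248 (6.24, 6.32 and 6.03 CPM against 2.26, 2.71 and 2.45 CPM; -1.32 ± 0.37), which shares its locus with another gene. Bves, a muscle membrane protein, was high in library 1 of the single exposure, at 31.5, 2.90 and 2.22 CPM against 1.21, 0.542 and 0.654 CPM. Clca1, annotated as a chloride channel accessory, stood at 5.196, 8.196 and 6.51 CPM against 3.47, 2.57 and 3.11 CPM (-1.12 ± 0.39). Gapdh and Hif1a, of the glycolysis and hypoxia list, lay lower without overlap (3.69% of all genes did), at -2.21 ± 0.79 and -0.37 ± 0.16. Without library 1 of the single exposure Gapdh stood at -1.09, and the list median of -0.21 became 0.07 with 15 of 26 above 0. Gapdh has many processed copies and is uncertain.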

How the data were processed

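Lung tissue was kept on dry ice, extracted with Trizol, depleted of ribosomal RNA and made into stranded libraries for a HiSeq, per the labels' protocols. The submitters' processing notes name cutadapt 1.9.3, HISAT2 2.0.4 and mm10. Which program counted the fragments was not stated in those notes or labels. The authors deposited 2 values per gene and library, per the file headers a count and an FPKM. The deposited counts are not whole and were handled like expected counts, by rounding, but are scaled fragments. They were whole fragments times 1 factor per library (0.854 to 1.14): after division, 94.4 to 95.4% lay within 0.1 of a whole number, and they were rounded. That share includes genes at 0. Of values above 0 and under 30 fragments, 94.8 to 95.4% lay that close. Genes with a mean of at least 0.5 FPKM over the 6 libraries were tested with edgeR 4.0.16 (TMM, quasi-likelihood, group as the only term, 4 residual degrees of freedom, R 4.3.3). The common biological coefficient of variation was 0.388. CPM use TMM factors, and overlap of groups was judged on CPM unless FPKM, fragments or shares of fragments are named. SE is the absolute log2 difference over the square root of F. The threshold for a call was 0.05 after Benjamini-Hochberg adjustment. Alternatives used DESeq2 1.42.0 and limma 3.58.1, with pseudocounts of 1 and 0.1 on FPKM.

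Of 14469 genes tested, 4253 share a locus with another gene. Not every such gene is marked where it is named: Irf7, Cebpb, H2-Q6, Itgae, Srebf1, Noxa1 and Pln are among them. Coordinates are those of GENCODE M21 (GRCm38, which mm10 is), 1-based. The pipeline was tested on simulated data. The members and the 60 gene lists were chosen with earlier results of these data known, and list medians and counts are descriptions with no test. Genes were named by rule: per direction the 12 with the smallest p among those at least 2-fold apart without overlap, which were not called, 4 members per described list, taken by smallest p, and 22 fixed genes, of which Xist was not analysed here. Some genes the rule names are not reported here. The liver list and the genes named from it, and Rpl5, Rpl10, Rpl12, Becn1, Pik3r4 and Atg4d, were chosen after their values were seen. At these depths, counts under 10 fragments carry large counting error.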

Additional observations from a re-analysis of the deposited data

How the results depend on the processing

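Of 18 alternatives, all but DESeq2 and limma on log2(FPKM + 1) called 0 genes. DESeq2 called 3 (Alb, Oas3, Serpina3k), and limma on log2(FPKM + 1) called 2 (Alb, Gm13248). Genes with an unadjusted p under 0.05 numbered 455, which ranged from 211 to 969 when 1 library was left out (969 without library 3 of the single exposure; 211, 280 and 282 without libraries 1, 2 and 3 of the 3 weekly exposures). The number that was also at least 2-fold apart was 237; it ranged from 122 to 530 when 1 library was left out (452 and 530 on leaving out single-exposure library 2 or 3, 134 and 122 without libraries 1 and 2 of the 3 weekly exposures). It was 372 with no FPKM filter, 149 at a mean of at least 2 FPKM, 105 with limma on log2(FPKM + 1) and 104 with limma voom. The share of higher genes among those at an unadjusted p under 0.05 was 39.8%, between 26.2% (limma on FPKM) and 62.6% (voom) under other methods, and between 21.5% and 64.3% when 1 library was left out (library 2 of the single and of the 3 weekly exposures). Same-numbered libraries of both groups had correlations of deviations of 0.07, 0.27 and -0.04. The highest values with a library of another number were 0.24, 0.03 and 0.20. With 3 libraries per group these values cannot settle whether the numbers pair the libraries. With a replicate block 0 genes were called, 458 had an unadjusted edgeR p under 0.05 and 160 were also 2-fold apart. Leaving out both libraries that stood apart gave 429 and 253.

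Of 119 genes checked, 106 kept their sign under the alternatives that gave them a value, and 16 had no value under at least 1. Leaving out 1 library gave ranges across 0 for Adipoq (-5.04 to 5.31), Ager (-0.32 to 0.91), Cd79a (-0.69 to 0.42), Cxcl5 (-1.15 to 3.85), Ddx3y (-1.04 to 0.057), Map1lc3b (-0.14 to 0.033), Pdk4 (-3.56 to 0.055), Pecam1 (-0.15 to 0.48), S100a8 (-2.03 to 1.70), Scgb1a1 (-0.30 to 0.035), Sftpc (-0.22 to 0.52) and Sqstm1 (-0.074 to 0.13). Without library 1 of the single exposure and library 3 of the 3 weekly exposures together, Ager stood at -0.37, Cd79a at 0.19, Pecam1 at -0.11, Sftpc at -0.32 and Sqstm1 at -0.11. On log2(FPKM + 1) and log2(FPKM + 0.1), Gabarapl2 stood at -0.042 and -0.043 and Sqstm1 at -0.31 and -0.31, where the median of all genes was -0.097 and -0.11. S100a8 stood at 0.39 with voom and 0.47 with the block. The cause was not tested. Of 60 list medians, 13 moved by more than the spread between library medians under an alternative that changed the scaling, the filter or the libraries. DESeq2, limma, voom, the counts as deposited and the replicate block were not part of that check.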
